A study of Homo sapiens with 8 samples.

Results

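Expression of 10 genes that encode JmjC histone demethylases, KDM2A, KDM2B, KDM3A, KDM3B, KDM4A, KDM4B, KDM4C, KDM5A, KDM5B and KDM6B, was followed by RNA-seq in Kyse510, an established human esophageal squamous cell carcinoma (ESCC) line. The genes were taken by name, and all 10 were found in both deposited expression tables, which share 26360 genes. The study lowered the activity or the amount of LSD1, a histone demethylase of another class, and of G9a, a histone H3 lysine 9 methyltransferase, and asked what this does to ESCC cells. There were 8 libraries with 1 library per condition. In the inhibitor table, cells received vehicle (DMSO), 7 µM of the LSD1 inhibitor SP2509, 7 µM of the G9a inhibitor UNC0642, or both inhibitors, for 2 days. The vehicle library is titled as DMSO, while its treatment label reads untreated, and all 3 inhibitor comparisons rest on it. The dose of each inhibitor within the combination is not given separately. In the shRNA lines, a shLSD1 line and a shG9a line, each carrying a doxycycline (Dox)-inducible hairpin from a lentiviral vector and selected with puromycin for 14 days, were grown without Dox or with Dox for 2 days. Each enzyme was targeted by 1 hairpin line, a library of cells given Dox without a hairpin against either enzyme was not analysed here, and how many clones make up a line is not given in the sources used here. Every treated library was compared with its own control, which was vehicle for the 3 inhibitor libraries and the same line without Dox for the shRNA libraries, so the 3 inhibitor comparisons share a control.

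JmjC demethylases are iron-dependent oxygenases that use molecular oxygen and 2-oxoglutarate to hydroxylate methyl groups on histone lysines, which then leave as formaldehyde. The families differ in the lysine they act on: KDM2 enzymes act on methylated H3K36, KDM3 enzymes on the mono- and dimethylated H3K9 that G9a writes, KDM4 enzymes on trimethylated H3K9 and H3K36, KDM5 enzymes on methylated H3K4, and KDM6B on methylated H3K27. LSD1 also removes methyl groups from H3K4 but uses a flavin cofactor, and unlike the KDM5 enzymes it cannot act on the trimethylated form.

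The values are FPKM, mapped fragments scaled to transcript length and library total, which are comparable between genes within a table as far as the lengths used hold. Library totals recovered from the steps of the values ran from 15662035 to 17889466, and the members had 254 to 9450 estimated reads in a library. LSD1 (KDM1A) stood at 26.0 FPKM without Dox and 6.29 with Dox in the shLSD1 line, and G9a (EHMT2) at 7.85 and 4.76 in the shG9a line. Of 8 squamous epithelial markers, 6 had at least 1 FPKM in all 8 libraries, while the mesenchymal marker VIM was at most 0.174 FPKM and PTPRC, a marker of immune cells, at most 0.0425. COL1A1, of the mesenchymal list, reached 5.36 FPKM, CDH5, of the endothelial list, 14.0, and CD14, of the immune list, 2.67 in shLSD1 with Dox, where its log2 change was 0.91. Since each condition had a single library, replicate spread is unknown and no difference between conditions was tested. The intervals given with ratios are exact 95% intervals from the estimated reads of the 2 libraries, cover counting error only and compare libraries, not conditions.

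All 10 members had at least 1 FPKM in all 8 libraries. In vehicle-treated cells KDM5B was the highest at 28.1 FPKM and KDM2B the lowest at 1.67 FPKM, with a median of 6.79 over the members, and the order from high to low was KDM5B, KDM3B, KDM2A, KDM4A, KDM3A, KDM6B, KDM5A, KDM4C, KDM4B, KDM2B. KDM3A headed the order with SP2509, with both inhibitors and in both lines without Dox, and was in the fifth place with vehicle and in both lines with Dox. Its first place in the lines without Dox rests on the length implied for KDM5B there, 25882 bases against 12092 in the inhibitor table. Scaled to the library total alone, KDM5B was at 331 in shLSD1 and 329 in shG9a without Dox, and KDM3A at 277 and 264. The length of KDM3A was 13423 bases in both tables. With 12092 bases KDM5B would therefore stand above KDM3A in both lines without Dox. KDM2B, KDM4B and KDM4C took the lowest places with vehicle and with every inhibitor treatment. Without replicates, whether neighbours in this order differ beyond their spread cannot be said.

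**Figure D1:**
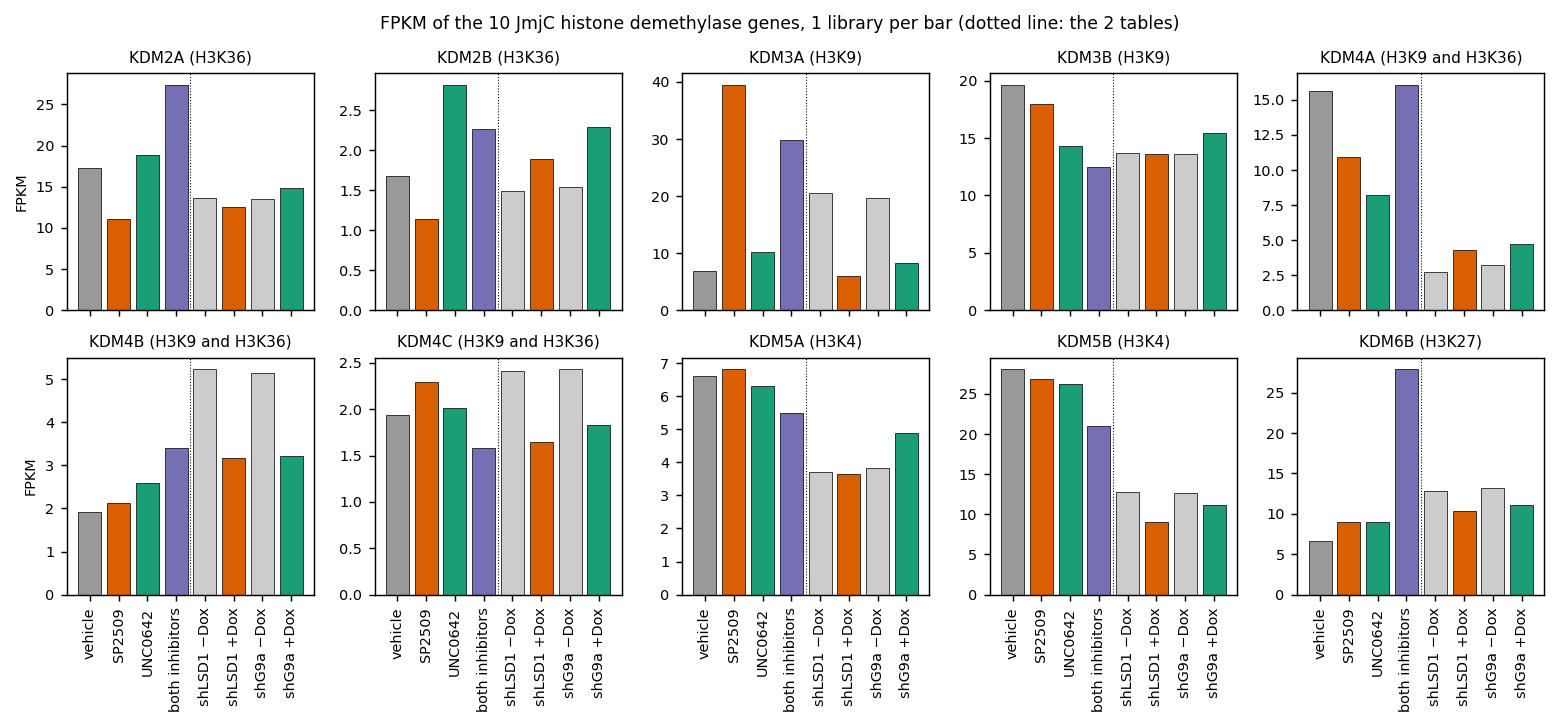
FPKM of each of the 10 members (vertical axes, each from 0) in the 8 libraries (horizontal axis), 1 bar per library, with the inhibitor table left and the shRNA table right of the dotted line. KDM3A reached 39.5 FPKM with SP2509 and 5.97 in the shLSD1 line with Dox, and KDM6B reached 27.9 with both inhibitors.

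The control libraries of the 2 tables differed in several members. KDM4A was 5.20-fold higher with vehicle than in the mean of the uninduced lines, whereas KDM3A was 2.90-fold and KDM4B 2.72-fold higher in the uninduced lines. The tables were normalised separately, so table and line cannot be told apart in these levels. For KDM5B the tables imply different transcript lengths, 12092 bases against 25882, so its FPKM is not comparable between them. Scaled to the library total alone (RPM), it was at 340 RPM with vehicle and 331 RPM in the uninduced shLSD1 line. The 2 uninduced lines lay close together. In shG9a against shLSD1 without Dox, 0 of 10 members were 1.3-fold apart and the largest absolute log2 difference was 0.17 for KDM4A, while 3.04% of 12449 genes were higher and 4.51% lower.

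A member was called higher or lower past a fold of 1.3 on log2(FPKM + 1), the fold used in the study's methods. The study also set a p threshold, which was not part of the calls here, and its methods name no pseudocount. SP2509 left 2 members higher (KDM3A, KDM6B) against 21.0% of 13342 genes tested, and 2 lower (KDM2A, KDM4A) against 39.9%. UNC0642 left 3 higher (KDM2B, KDM3A, KDM6B) against 18.2% of 13244 genes, and 2 lower (KDM3B, KDM4A) against 16.9%. With both inhibitors 4 were higher (KDM2A, KDM3A, KDM4B, KDM6B) against 31.4% of 13907 genes, and 2 lower (KDM3B, KDM5B) against 31.7%. Each count of the inhibitor comparisons lay within 2 members of the number that the share over all genes would give for 10.

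With Dox in the shLSD1 line 1 member was higher (KDM4A) against 24.8% of 12970 genes, and 3 were lower (KDM3A, KDM4B, KDM5B) against 12.3%. In the shG9a line 1 was higher (KDM4A) against 32.9% of 13080 genes, and 2 were lower (KDM3A, KDM4B) against 17.6%. The shRNA libraries with Dox also carried a general shift, a median log2 change of 0.11 for shLSD1 and 0.14 for shG9a over genes of 5 FPKM or more. Relative to that shift 17.0% of genes were higher and 16.6% lower in shLSD1, and 22.5% and 22.5% in shG9a, KDM4A was no longer called in shG9a, KDM4C was called lower in both lines and KDM6B was called lower in shLSD1.

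The median log2 change over the members was -0.01 with SP2509 beside -0.21 over all genes tested, 0.08 beside -0.01 with UNC0642, and 0.16 beside -0.02 with both. It was -0.20 beside 0.13 in shLSD1, and -0.03 beside 0.18 in shG9a. On log2(FPKM + 1), KDM4C and KDM5A stayed under the fold of 1.3 in all 5 comparisons, and KDM3A passed it in all 5. Without the pseudocount, KDM4C was 1.47-fold lower in shLSD1 and 1.33-fold lower in shG9a.

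**Figure D2:**
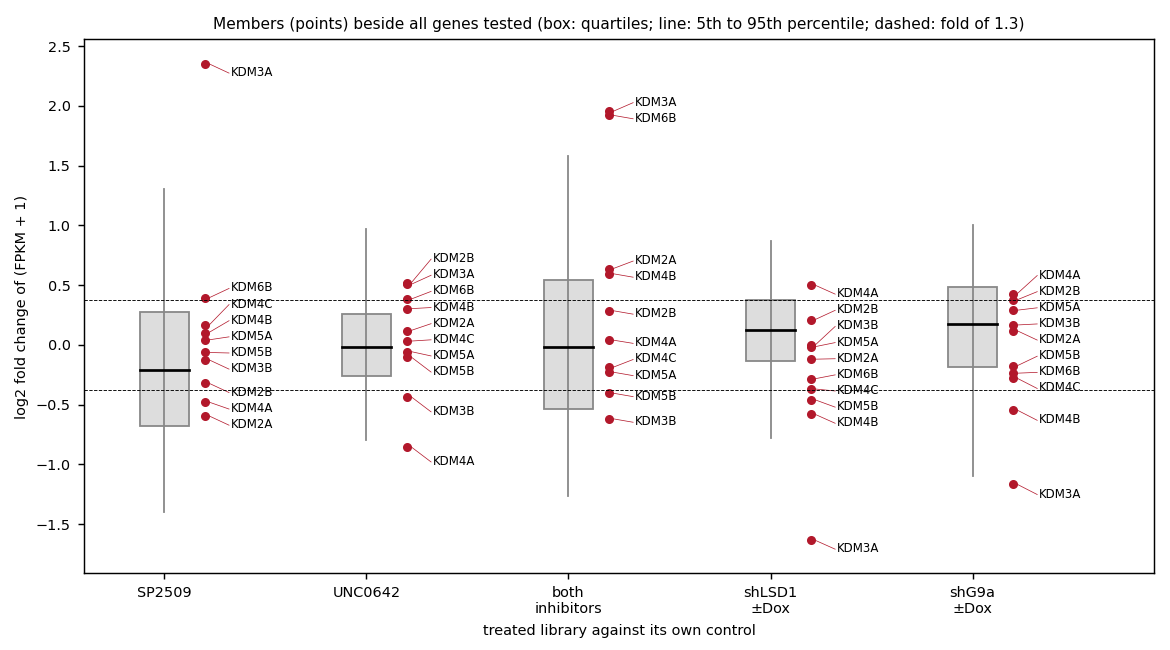
Log2 fold change of FPKM + 1 (vertical axis) in each of the 5 comparisons (horizontal axis) for the members (red points) beside all genes tested (boxes, quartiles with the median; grey lines, 5th to 95th percentile; dashed lines, fold of 1.3). KDM3A lies above the 95th percentile with SP2509 and with both inhibitors and below the 5th percentile in both shRNA lines. KDM6B lies above the 95th percentile with both inhibitors, and KDM4A lies below the 5th percentile with UNC0642.

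KDM3A, which removes mono- and dimethyl marks from H3K9 and is known as a hypoxia-induced gene, had the largest change of any member in each comparison except UNC0642, where KDM4A and KDM2B changed more. It stood at 6.94 FPKM with vehicle, against 39.5 with SP2509, 10.3 with UNC0642 and 29.7 in the combination. The libraries with SP2509, alone or in combination, were thus the high ones. Among the shRNA libraries it stood at 20.6 FPKM in shLSD1 without Dox and 5.97 with Dox, and at 19.7 in shG9a without Dox and 8.22 with Dox. Here the libraries with Dox were the low ones.

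As a ratio, KDM3A was 5.70-fold higher with SP2509 (5.40 to 6.03), the change ranked 128 from the top of 13342 genes. It was 1.48-fold higher with UNC0642 (1.39 to 1.58) and 4.29-fold higher with both (4.05 to 4.54). Adding UNC0642 to SP2509 went with a level 1.33-fold lower than SP2509 alone (1.29 to 1.37). Dox went with a 3.45-fold lower level in shLSD1 (3.25 to 3.67), which ranked 132 from the bottom of 12970 genes, and a 2.39-fold lower level in shG9a (2.27 to 2.53).

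The squamous epithelial markers did not move together in these libraries. Of 8 markers, 6 were higher and 1 lower with SP2509, 4 and 2 with UNC0642 and 4 and 3 with both inhibitors, and with Dox 1 of the 7 tested was higher and 2 lower in shLSD1, and 4 of 8 were higher and 1 lower in shG9a. Their summed FPKM was 1055 with vehicle, against 4847 with SP2509, 1442 with UNC0642 and 1069 in the combination, and it was 2172 and 583 in shLSD1 and 2007 and 727 in shG9a, each without and with Dox. Much of that sum was KRT17, a keratin of squamous epithelium, which stood at 324, 3716, 806 and 594 FPKM in the inhibitor table in the same order, at 1738 and 265 in shLSD1, and at 1596 and 158 in shG9a. Without KRT17, a sum added after the data were seen, the values were 731, 1130, 636 and 475 in the inhibitor table, 435 and 318 in shLSD1, and 411 and 569 in shG9a, so the direction in shG9a turned. SOX2, a transcription factor of squamous cells, ran the other way, with 18.3 FPKM with vehicle and 0.313 with SP2509, 5.24 and 20.1 in shLSD1, and 5.99 and 38.8 in shG9a. The part of these differences in the KDM3A result was not tested.

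KDM3A (ENSG00000115548) lies on chromosome 2 from 86440647 to 86492716 (GRCh38), on the forward strand. The RefSeq start windows (GRCh38.p14) of the members were searched on both strands, over 250 bases upstream of each start, for 5 motifs. These were ACGTG (the core to which hypoxia-inducible factors bind), TGANTCA (AP-1), TGATGNAA (the C/EBP-ATF element), TGACGTCA (the CRE) and GGGCGG (the GC box). The 10 members have 16 windows. An AP-1 match was found in 2 of them, 1 of KDM3A and 1 of KDM4C, and 6.57% of the 35116 windows in the table hold such a match. Both of these windows precede a RefSeq start that lies within the gene. They fall inside the deposited span of their own gene and overlap its exons, so they are not upstream of the whole gene. ACGTG was found in 2 of the 16, those of KDM4B and KDM4C, against 18.5% of all windows, and in KDM4C it overlaps the AP-1 match. A GC box was found in 11 of the 16 windows, spread over 8 members, against 42.6% of all windows, and TGATGNAA and TGACGTCA were found in 0 of 16 against 3.14% and 1.65%. A member with several windows, such as KDM2B with 4, has more chances of a match. A match is a description of the letters and not a binding site. The stretches around the AP-1 matches, at chr2:86441411-86441437 and chr9:6757904-6757930 on the forward strand are shown with the match in capitals, since they are the AP-1 matches found among the members:
KDM3A: ctgccgccggTGACTCAgggaggcggg
KDM4C: taagcccacgTGACTCAccaagtgcgg

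KDM3B, the paralog of KDM3A with the same H3K9 substrates, did not follow it. It had 19.7 FPKM with vehicle, against 18.0 with SP2509, 14.3 with UNC0642 and 12.5 in the combination. In the shRNA table it had 13.7 FPKM without and 13.6 with Dox in shLSD1, and 13.6 and 15.4 in shG9a. The vehicle library was the highest of the inhibitor table and both lines lay within a narrow range. KDM3B was 1.37-fold lower with UNC0642 (1.29 to 1.46) and 1.58-fold lower with both (1.48 to 1.68), and the log2 changes with SP2509 (-0.12), shLSD1 (-0.002) and shG9a (0.17) stayed under the fold of 1.3.

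KDM4A, which removes trimethyl marks from H3K9 and H3K36, was lower with each inhibitor alone and not with both. It had 15.6 FPKM with vehicle, against 10.9 with SP2509, 8.21 with UNC0642 and 16.1 in the combination. In the shRNA lines it had 2.77 FPKM without and 4.33 with Dox in shLSD1, and 3.24 and 4.70 in shG9a, so that the libraries with Dox were the higher of each pair. The level was 1.43-fold lower with SP2509 (1.31 to 1.55) and 1.90-fold lower with UNC0642 (1.74 to 2.08), and the ratio with both was 1.03 (0.954 to 1.11), an interval that includes 1. It was 1.57-fold higher with Dox in shLSD1 (1.33 to 1.84) and 1.45-fold higher in shG9a (1.24 to 1.70). Relative to the general shift of the shG9a library the log2 change was 0.29, under the fold of 1.3, and in shLSD1 it was 0.39.

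KDM4A (ENSG00000066135) lies on chromosome 1 from 43650158 to 43705515, forward strand, and shares exonic bases with KDM4A-AS1, an opposite-strand gene at up to 1.19 FPKM. The strand setting of the counting is not given in the sources used here, so reads of the pair may not be separable. KDM4B (ENSG00000127663), another eraser of trimethylated H3K9 and also known as a hypoxia-induced gene, lies on chromosome 19 from 4969113 to 5153595, forward strand. The 250 bases upstream of their RefSeq starts, chr1:43649899-43650148 for KDM4A and chr19:4968863-4969112 for KDM4B, are shown because the paralogs were called in opposite directions in both shRNA lines (in shG9a not relative to the general shift) and differ in these motifs. ACGTG matches, which on both strands together spell CACGTG, and GC boxes are in capitals. KDM4A holds 0 matches to the 5 motifs, and KDM4B holds the ACGTG pair and 4 GC boxes:
KDM4A: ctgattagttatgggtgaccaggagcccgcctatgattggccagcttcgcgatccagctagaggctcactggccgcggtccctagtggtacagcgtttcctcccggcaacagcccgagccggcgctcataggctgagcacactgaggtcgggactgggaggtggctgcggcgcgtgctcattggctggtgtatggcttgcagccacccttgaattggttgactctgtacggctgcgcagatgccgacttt
KDM4B: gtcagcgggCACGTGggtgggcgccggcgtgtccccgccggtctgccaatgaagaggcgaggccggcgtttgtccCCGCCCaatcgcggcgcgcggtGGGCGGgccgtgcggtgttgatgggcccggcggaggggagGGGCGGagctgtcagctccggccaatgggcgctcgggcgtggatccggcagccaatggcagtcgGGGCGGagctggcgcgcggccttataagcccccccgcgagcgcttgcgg

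KDM4B had 1.91 FPKM with vehicle, against 2.13 with SP2509, 2.59 with UNC0642 and 3.40 in the combination. Among the shRNA libraries it had 5.24 FPKM without and 3.17 with Dox in shLSD1, and 5.14 and 3.21 in shG9a. The vehicle library was the lowest of its table, and the libraries with Dox were the low ones of theirs. KDM4B was 1.78-fold higher with both inhibitors (1.58 to 2.00), 1.65-fold lower with Dox in shLSD1 (1.51 to 1.80) and 1.60-fold lower in shG9a (1.46 to 1.75). With SP2509 the ratio was 1.11 (0.981 to 1.27) and with UNC0642 it was 1.36 (1.20 to 1.53), which on log2(FPKM + 1) was 0.30 and under the fold of 1.3.

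KDM4C, the third H3K9 and H3K36 eraser, stayed between 1.58 and 2.44 FPKM in all libraries. It had 1.94 FPKM with vehicle, against 2.30 with SP2509, 2.01 with UNC0642 and 1.58 in the combination, and 2.41 and 1.64 in shLSD1 and 2.44 and 1.83 in shG9a without and with Dox. Its FPKM ratios with Dox were 1.47-fold lower in shLSD1 (1.26 to 1.71) and 1.33-fold lower in shG9a (1.15 to 1.54), which at these low levels gave log2 values of -0.37 and -0.28 with the pseudocount and no call.

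KDM2A, a CpG-island-binding H3K36 demethylase, had 17.3 FPKM with vehicle, against 11.1 with SP2509, 18.9 with UNC0642 and 27.4 in the combination. SP2509 alone gave the lowest level of the table and the combination the highest. KDM2A was 1.55-fold lower with SP2509 (1.47 to 1.65), 1.59-fold higher with both (1.52 to 1.66), and 2.47-fold higher with both than with SP2509 alone (2.34 to 2.60). In the shRNA table it had 13.7 FPKM without and 12.5 with Dox in shLSD1, and 13.6 and 14.8 in shG9a, with log2 changes of -0.12 and 0.12. The second of these turns to -0.02 relative to the general shift.

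KDM2B, which brings a Polycomb repressive complex to CpG islands, had 1.67 FPKM with vehicle, against 1.14 with SP2509, 2.82 with UNC0642 and 2.26 in the combination. In the shRNA lines it had 1.49 FPKM without and 1.89 with Dox in shLSD1, and 1.54 and 2.29 in shG9a, the libraries with Dox being the higher. It was 1.69-fold higher with UNC0642 (1.48 to 1.92). The ratio in shG9a was 1.49 (1.302 to 1.71) and the log2 change with the pseudocount was 0.38, just under the fold of 1.3. KDM2B was the lowest member in 4 of the 8 libraries, and shares exonic bases with RNF34, an opposite-strand gene at up to 13.1 FPKM, so part of its reads may not be separable from that gene.

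KDM5A and KDM5B remove di- and trimethyl marks from H3K4, the lysine on which LSD1 also acts. KDM5B had 28.1 FPKM with vehicle, against 26.9 with SP2509, 26.2 with UNC0642 and 21.0 in the combination. Among the shRNA libraries it had 12.8 FPKM without and 9.03 with Dox in shLSD1, and 12.7 and 11.2 in shG9a. The treated library was the lower of the pair in each comparison. KDM5B was 1.34-fold lower with both inhibitors (1.28 to 1.39) and 1.42-fold lower with Dox in shLSD1 (1.36 to 1.47), and its log2 change was -0.06 with SP2509, -0.10 with UNC0642 and -0.17 in shG9a. The value for SP2509 is 0.03 once ratios are centred on genes of 5 FPKM or more.

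KDM5A was called in 0 of the 5 comparisons. It had 6.60 FPKM with vehicle, against 6.83 with SP2509, 6.32 with UNC0642 and 5.49 in the combination, and 3.70 and 3.66 in shLSD1 and 3.82 and 4.89 in shG9a without and with Dox. The ratio was 1.03 with SP2509 (0.959 to 1.12) and 0.957 with UNC0642 (0.885 to 1.03), and both intervals include 1. The largest change was in shG9a, a ratio of 1.28 (1.17 to 1.41) and a log2 change of 0.29. KDM5A shares exonic bases with the opposite-strand gene CCDC77, at up to 6.39 FPKM.

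KDM6B (ENSG00000132510), which removes H3K27 methyl marks and is known as an inducible gene of stress and inflammation, lies on chromosome 17 from 7839904 to 7854796, forward strand. It had 6.64 FPKM with vehicle, against 9.04 with SP2509, 8.96 with UNC0642 and 27.9 in the combination. In the shRNA table it had 12.9 FPKM without and 10.4 with Dox in shLSD1, and 13.2 and 11.1 in shG9a. The combination gave the highest level of the 8 libraries. KDM6B was 1.36-fold higher with SP2509 (1.24 to 1.49), 1.35-fold higher with UNC0642 (1.23 to 1.48) and 4.21-fold higher with both (3.89 to 4.56), a change that ranked 403 from the top of 13907 genes. With both inhibitors it was 3.09-fold higher than with SP2509 alone (2.89 to 3.31) and 3.12-fold higher than with UNC0642 alone (2.92 to 3.33). In the shRNA lines the log2 changes of -0.28 and -0.24 were under the fold of 1.3. The 250 bases before the upstream RefSeq start, chr17:7833967-7834216, are shown because KDM6B had the largest change of the combination over either inhibitor alone. The 250 bases before the other RefSeq start of KDM6B, chr17:7839667-7839916, hold 0 matches to the 5 motifs. The bases shown hold 4 GC boxes, in capitals, and 0 matches to the other motifs:
KDM6B: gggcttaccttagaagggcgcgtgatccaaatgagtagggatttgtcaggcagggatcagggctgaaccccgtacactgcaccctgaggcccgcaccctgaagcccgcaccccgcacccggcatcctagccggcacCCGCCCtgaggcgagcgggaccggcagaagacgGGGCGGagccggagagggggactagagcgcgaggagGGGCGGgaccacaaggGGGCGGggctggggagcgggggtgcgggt

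**Figure D3:**
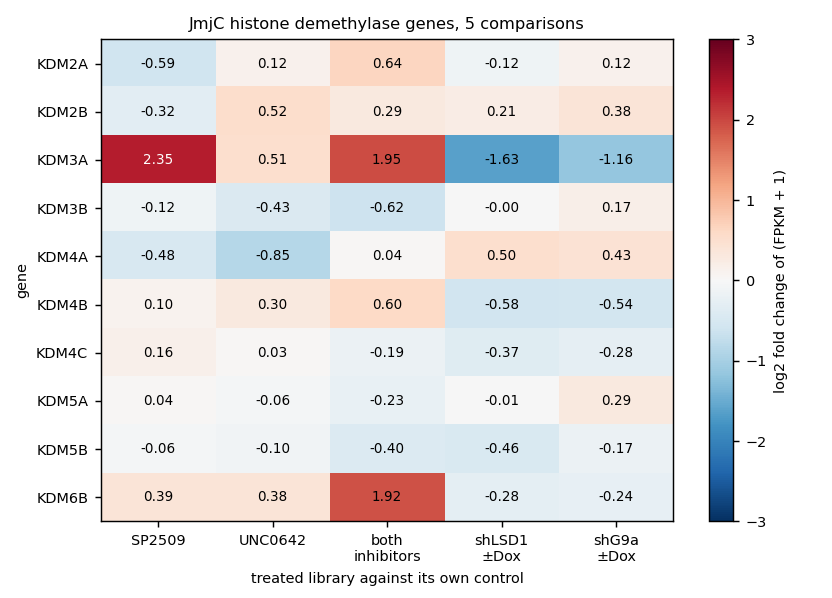
Log2 fold change of FPKM + 1 (colour and printed value) for the 10 members (vertical axis) in the 5 comparisons (horizontal axis), red for higher and blue for lower than the control. KDM3A is red in the 3 inhibitor comparisons and blue in both shRNA lines, KDM4A is blue with each single inhibitor and red in both lines, and KDM6B is darkest with both inhibitors.

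The inhibitor and the hairpin against the same enzyme were set side by side for each member. For LSD1, 2 of 10 members (KDM3A, KDM4A) were called in opposite directions by SP2509 and by shLSD1, against 20.4% of 11769 genes, which is about the same share, and 0 in the same direction, against 4.61%. For G9a, KDM3A and KDM4A were again called in opposite directions, 2 of 10 against 10.1% of 11906 genes, and 0 in the same direction, against 8.80%. KDM3A was higher with the inhibitor and lower with Dox, and KDM4A the reverse, although the G9a call of KDM4A is lost relative to the general shift of the shG9a library, and both of its hairpin calls are lost with a minimum of 5 FPKM. Without KDM4A, 1 of 10 members remained for G9a, about the share of all genes. The SP2509 and UNC0642 values share the vehicle library, and the inhibitor and shRNA values come from tables whose control libraries already differed in both genes. No test of these differences was possible with 1 library per condition.

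For each member the log2 change with both inhibitors was set beside the sum of the log2 changes with SP2509 alone and UNC0642 alone. KDM4A exceeded the sum by 1.37, with 0.04 against -1.33, KDM6B by 1.14, with 1.92 against 0.78, and KDM2A by 1.11, with 0.64 against -0.47. KDM3A lay under the sum by 0.91, with 1.95 against 2.86. The other 6 members were between -0.38 and 0.19 from it. Over the 14801 genes with a value the median of this difference was 0.19 and the range from the 5th to the 95th percentile was -1.41 to 1.64, so all 10 members lay within it.

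**Figure D4:**
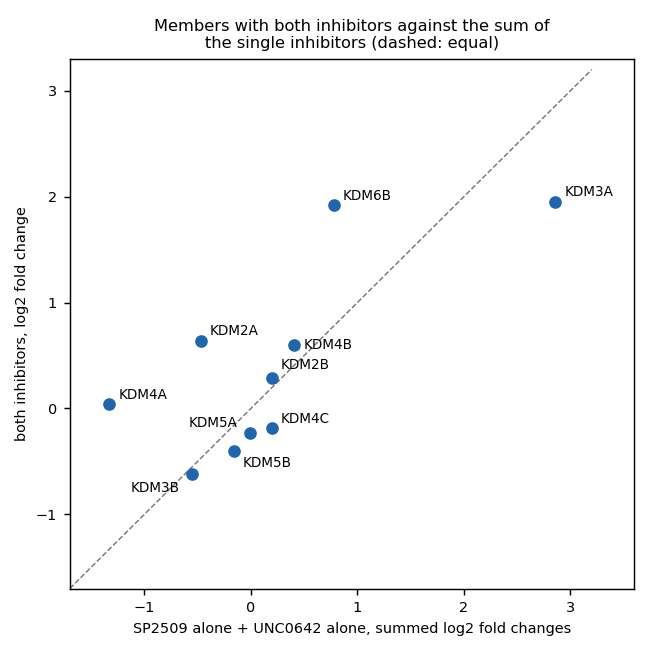
Log2 fold change with both inhibitors (vertical axis) against the sum of the log2 fold changes with SP2509 alone and UNC0642 alone (horizontal axis), 1 point per member, with the dashed line where the values are equal. KDM6B, KDM2A and KDM4A lie over 1 above the line, and KDM3A lies 0.91 below it.

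Other JmjC demethylases were described from a list of 12 genes, of which 11 were in both tables. For this and the following lists the shares over all genes tested, higher and lower, are 21.0% and 39.9% with SP2509, 18.2% and 16.9% with UNC0642, 31.4% and 31.7% with both, 24.8% and 12.3% in shLSD1, and 32.9% and 17.6% in shG9a. With SP2509 2 of the 8 tested were higher and 5 lower, with UNC0642 2 of 10 higher and 3 lower, and with both inhibitors 2 of 9 higher and 5 lower. In shLSD1 2 of 9 were higher and 0 lower, and in shG9a 3 of 9 were higher and 1 lower. KDM6A, the paralog of KDM6B with the same H3K27 substrates, had 12.4 FPKM with vehicle, against 39.2 with SP2509, 18.3 with UNC0642 and 8.12 in the combination. It was thus high with SP2509 alone and low in the combination, where KDM6B was high. RIOX1 and RIOX2, JmjC oxygenases that act on ribosomal proteins, had log2 changes of -1.60 and -1.01 with SP2509 and of 0.83 and 0.58 in shLSD1. PHF8, a PHD-finger eraser of H3K9 and H4K20 methyl marks, had log2 changes from -0.66 to -0.57 in the 3 inhibitor comparisons and 0.63 in shG9a.

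**Figure D5:**
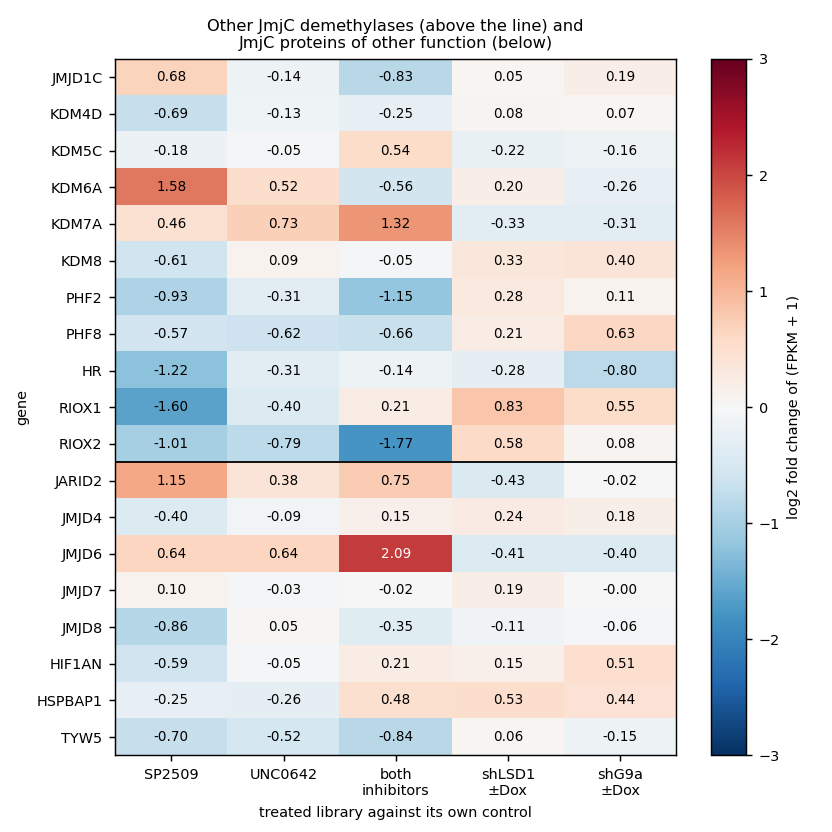
Log2 fold change of FPKM + 1 (colour and printed value) for 11 other JmjC demethylases (above the line) and 8 JmjC proteins of other function (below) in the 5 comparisons (horizontal axis), genes below 1 FPKM included. KDM6A is highest with SP2509 at 1.58, and JMJD6 with both inhibitors at 2.09.

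Of 8 JmjC proteins of other function, 2 of 6 tested were higher and 3 lower with SP2509, 1 and 1 of 6 with UNC0642, 3 and 1 of 7 with both, 1 and 2 of 7 in shLSD1, and 2 and 1 of 7 in shG9a. JMJD6, a lysyl hydroxylase, was the only gene of this list called in all 5 comparisons. It had 1.89 FPKM with vehicle, against 3.52 with SP2509, 3.50 with UNC0642 and 11.3 in the combination, and its log2 change was -0.41 in shLSD1 and -0.40 in shG9a. JARID2, a JmjC protein of the PRC2 complex without demethylase activity, had log2 changes of 1.15 with SP2509, 0.75 with both and -0.43 in shLSD1. HSPBAP1 had log2 changes of 0.48, 0.53 and 0.44 with both inhibitors, in shLSD1 and in shG9a, and TYW5, a hydroxylase of transfer RNA, had -0.70, -0.52 and -0.84 in the 3 inhibitor comparisons.

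The methyltransferases that write the marks the members erase were more often lower with SP2509 and with both inhibitors than higher, where 39.9% and 31.7% of all genes tested were lower. Of 19, 1 was higher and 10 lower with SP2509, 0 and 4 with UNC0642, and 2 and 10 with both, while 5 were higher and 0 lower in shLSD1, and 7 and 2 in shG9a. The list includes EHMT2, the target of the shG9a hairpin, which was among those lower in shG9a, with a log2 change of -0.62. The list's median log2 change was -0.39, -0.15, -0.52, 0.21 and 0.30 in the same order, beside the medians over all genes given with the members. SETD1B, an H3K4 methyltransferase, had 7.73 FPKM with vehicle and 1.35 with SP2509, and 3.27 without and 7.25 with Dox in shLSD1. NSD1, which writes H3K36 methylation, had 9.39 FPKM with vehicle, 2.16 with SP2509 and 2.06 with both. KMT2D, another H3K4 enzyme, had log2 changes of -1.34 with SP2509 and 0.63 with both, SETDB2 had -0.47, -0.61 and -0.82 in the inhibitor comparisons, and EZH2, the H3K27 methyltransferase opposed by KDM6B, had -0.67 with SP2509, -0.66 with UNC0642 and 0.39 in shLSD1.

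Genes of 2-oxoglutarate supply and clearance, the co-substrate of the members, numbered 10. With SP2509 0 were higher and 4 lower, with UNC0642 1 and 2, with both 2 and 3, in shLSD1 4 and 0, and in shG9a 1 and 1. The 4 of 10 lower with SP2509 are about the share of all genes. IDH1, which makes cytosolic 2-oxoglutarate from isocitrate, had 90.1 FPKM with vehicle, against 26.6 with SP2509, 61.6 with UNC0642 and 49.6 in the combination. It had 91.2 FPKM without and 154 with Dox in shLSD1, and 99.0 and 134 in shG9a. The inhibitor libraries were thus low and the libraries with Dox high. GLUD1, a mitochondrial source of 2-oxoglutarate from glutamate, had a log2 change of 0.45 in shLSD1 and -1.05 in shG9a. D2HGDH, which returns D-2-hydroxyglutarate to 2-oxoglutarate, had a log2 change of -1.81 with both inhibitors.

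Of 14 partner subunits of the members, 2 of 12 tested were higher and 2 lower with SP2509, 2 and 1 of 13 with UNC0642, 6 and 2 of 13 with both, 0 and 1 of 14 in shLSD1, and 1 and 2 of 14 in shG9a. RYBP, a Polycomb subunit found with KDM2B, was called in all 5 comparisons. It had 9.78 FPKM with vehicle, against 24.5 with SP2509, 15.1 with UNC0642 and 27.5 in the combination, and 14.6 and 7.88 in shLSD1 and 14.4 and 6.93 in shG9a without and with Dox. As for KDM3A, the inhibitor libraries were the high ones and the libraries with Dox the low ones, while KDM2B itself was higher with UNC0642 alone. BCORL1, of the same Polycomb complex, had a log2 change of 1.81 with both inhibitors, and RING1, its E3 ligase, had -0.48 with UNC0642, -0.59 with both and -0.50 in shG9a.

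The genes most like KDM3A over the 8 libraries, by Pearson's r of log2(FPKM + 1) with each table centred on its own mean, were TINF2 (0.993), CLK3 (0.992) and MYADM (0.983) of 9439 genes with at least 1 FPKM in all libraries. These are descriptions, since the libraries share controls and 4 of 8 share a table. MYADM had 18.6 FPKM with vehicle and 75.7 with SP2509, and 73.2 and 26.4 in shLSD1 without and with Dox. Among the 45 pairs of members the highest r was 0.89 for KDM4C and KDM5B and the lowest was -0.82 for KDM3B and KDM6B.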

How the data were processed

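The authors mapped paired-end reads (PE150) to the human genome (GRCh38) and deposited FPKM values in 2 tables, 1 for the inhibitors and 1 for the shRNA lines. The aligner, the counter and the use of strand are not given in the sources used here. Gene positions are those given with the deposited values. Library totals and whole reads per gene were estimated from the steps of the FPKM values, which gave 99.6% to 99.8% of each total and left 4 and 3 genes without whole reads. The procedure was run on simulated data built from the recovered lengths and totals. Such data cannot show whether the deposited values follow that form. A log2 fold change is that of FPKM + 1, so changes of low genes are understated. Genes with at least 1 FPKM in 1 of the 2 libraries were tested against a fold of 1.3. Ratios of FPKM have exact 95% conditional binomial (Clopper-Pearson) intervals. PCR reads are not independent molecules. Groups were taken from the sample titles.

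The members and gene lists were chosen with earlier results of these data known. Named were all members, genes of each list called in 3 or more comparisons or with its largest change, and the 3 genes most like the member with the largest change. A gene that this rule also names is not reported here. Promoter windows came from RefSeq (GRCh38.p14) and exons from GENCODE release 44. Python 3.11.15, pandas 2.3.3 and scipy 1.17.1 were used. Alternatives were other pseudocounts, filters and folds, centred ratios, an added binomial threshold and both uninduced libraries averaged as control.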

Additional observations from a re-analysis of the deposited data

Results flagged for a closer look

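For 2 members the inhibitor and the hairpin against the same enzyme went past a fold of 1.3 in opposite directions, 2 of 10 members against 20.4% of all genes for LSD1 and 10.1% for G9a. The difference between the log2 fold changes, inhibitor minus hairpin, was 3.99 for KDM3A and -0.98 for KDM4A with LSD1, and 1.67 for KDM3A and -1.28 for KDM4A with G9a. The shG9a call of KDM4A is lost with ratios centred on the median, where its log2 change was 0.29. With 1 library per condition these differences were not tested.

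Among the named genes of the other lists, 11 were also called in opposite directions with LSD1 and 7 with G9a. Most of these genes were named because they were called in several of the same comparisons. The counts are therefore raised by the naming and are not shares to set beside the 20.4% and 10.1% of all genes. With LSD1 the difference was -2.44 for RIOX1, -1.59 for RIOX2, 1.57 for JARID2, 1.05 for JMJD6 and 2.05 for RYBP. Among methyltransferases it was -1.74 for KMT2D, -2.84 for SETD1B, -1.06 for EZH2 and -2.16 for NSD1, and among genes of 2-oxoglutarate supply it was -2.48 for IDH1 and -0.85 for GLUD1. With G9a it was -1.25 for PHF8, -0.96 for RIOX1, 1.04 for JMJD6, -1.502 for SETD1B, -1.09 for SETDB2, -0.97 for IDH1 and 1.54 for RYBP. GLUD1 also went in opposite directions with Dox in the 2 lines, 0.45 in shLSD1 and -1.05 in shG9a, a difference of 1.498. With centred ratios, an alternative chosen after seeing the data for these lists, the opposite calls were lost for KMT2D, EZH2, NSD1 and GLUD1 with LSD1, for SETDB2 and IDH1 with G9a, and for GLUD1 between the lines, and 7 and 5 genes kept them with LSD1 and G9a. None of these differences was tested, since each rests on single libraries.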

How the results depend on the processing

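Among the members, 4, 5, 6, 4 and 3 were called with SP2509, UNC0642, both inhibitors, shLSD1 and shG9a. At a fold of 1.5 the counts were 2, 1, 5, 1 and 1, and at a fold of 2 they were 1, 0, 2, 1 and 1. Pseudocounts of 0.1 and 0.01 each gave 5, 6, 7, 5 and 5. With centred ratios the counts were 4, 5, 6, 6 and 3. With both uninduced libraries averaged as control they were 4 in shLSD1 and 4 in shG9a. Without a filter on FPKM, or with the binomial p as a second threshold, the counts equalled the first ones. With a minimum of 5 FPKM they were 4, 4, 5, 3 and 2, and the members higher fell from 1 to 0 in both shRNA lines, where KDM4A was then not tested. At a fold of 2 the share of all genes called in 1 direction ran from 3.12% to 13.02% over the comparisons. At a fold of 1.5 that share ran from 7.48% to 29.3%, and with a minimum of 5 FPKM from 12.3% to 37.1%. With a pseudocount of 0.1 it ran from 14.9% to 43.5%, and with 0.01 from 15.26% to 43.99%. Except at the fold of 2, the lowest of these shares was that lower in shLSD1 and the highest that lower with SP2509. Of the 50 log2 changes, 2 changed sign, both under the fold of 1.3 and both with ratios centred on the median: KDM5B with SP2509 (0.03) and KDM2A in shG9a (-0.02). Without a pseudocount, an alternative chosen after seeing the data, 0 of 50 changed sign. The counting intervals are built on these ratios, and for 39 of 50 the log2 change of FPKM + 1 lay within the interval. No paired analysis was possible because each group has 1 library. Depth gave every member at least 254 reads in a library. No replicate spread is known for any value.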
